A study of Mus musculus with 15 samples.

Results

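The genes described here are the 10 that carry glucose carbon through the second part of glycolysis and out of the cell as lactate. They were taken by symbol from the 32152 genes of the deposited table, and all 10 were found: the phosphoglycerate kinase gene Pgk1, the phosphoglycerate mutase gene Pgam1, the enolase genes Eno1, Eno2 and Eno3, the pyruvate kinase gene Pkm, the lactate dehydrogenase genes Ldha and Ldhb, and the lactate transporter genes Slc16a1 and Slc16a3. All 10 passed the filter on low values (at least 1 FPKM in at least 3 samples), as did 13284 genes in all.

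RNA was sequenced from C57BL/6 mouse embryonic stem cells (ESCs), pluripotent cells of the early embryo, in 5 groups of 3 samples. The groups were 1 nM and 10 nM oligomycin, 5 mM and 10 mM 2-deoxy-D-glucose (2-DG), and a mock control, with 48 hours of exposure to either inhibitor. Fetal bovine serum, sodium pyruvate and leukemia inhibitory factor were in the medium of all groups. The ESC line is not named in the labels, and whether the 3 samples of a group were separate cultures is not given, so the p-values measure the spread between these samples, which may be technical.

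In the lower part of glycolysis, phosphoglycerate kinase makes ATP, the mutase and enolase rearrange and dehydrate the remaining acid to phosphoenolpyruvate, and pyruvate kinase makes ATP again. Lactate dehydrogenase then reduces pyruvate to lactate and returns NAD+ to glycolysis, and the monocarboxylate transporters MCT1 (Slc16a1) and MCT4 (Slc16a3) carry lactate with a proton across the plasma membrane. Oligomycin blocks the mitochondrial ATP synthase, and 2-DG is a glucose analog that is phosphorylated by hexokinase and inhibits early steps of glycolysis. Naive mouse ESCs are known to use both glycolysis and respiration. HIF-1, MYC and the glucose-sensing factor ChREBP are textbook regulators of several of these genes.

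Read depth worked out from the values was 17.4 to 19.2 M (mega) reads per sample, and the 10 genes received between 200 reads (Eno3) and 51784 reads (Pkm) in a sample. All 10 ESC markers listed (Pou5f1, Sox2, Nanog and others) were above 1 FPKM in every group, summing to 1120 to 1211 FPKM at 1 nM oligomycin, 446 to 583 FPKM at 10 nM, 1669 to 1748 FPKM at 5 mM 2-DG, 1511 to 1544 FPKM at 10 mM, and 1941 to 2132 FPKM in the controls. All 10 fibroblast markers listed (Col1a1, Lox, Thy1 and others) were above 1 FPKM in every group too, summing to 2168 to 2265, 2968 to 3306, 981 to 1108, and 1180 to 1290 FPKM in those treatments, against 1016 to 1061 FPKM in the controls. With oligomycin, 9 of the 10 fibroblast markers rose at 1 nM and all 10 at 10 nM, while 9 and all 10 of the ESC markers fell. With 2-DG the ESC markers did not move together: 3 rose and 2 fell at 5 mM, and 2 rose and 4 fell at 10 mM. Over all genes tested, 63% and 75.8% passed at 1 nM and 10 nM oligomycin, and 35.3% and 48.2% at 5 mM and 10 mM 2-DG. Tdgf1 (146 FPKM at 10 mM, against 366 FPKM in the controls), Utf1, Dppa5a and Nanog fell at 10 mM, Tfcp2l1 (30.04 FPKM, against 20.2 FPKM) and Klf4 rose, and Pou5f1, Sox2, Esrrb and Zfp42 did not pass. Col1a1 alone averaged 426 FPKM in the controls. Whether the ESCs were grown on feeder cells, which are commonly fibroblasts, and how long the mock samples were kept are not given in the labels. The part of the marker shift in the results for oligomycin was not tested, and in bulk RNA fewer cells of a type and less RNA per cell cannot be told apart. Replicate 1 of 10 nM oligomycin lay farther from its group mean over all genes than any other sample (root mean square 0.181 on the log2 scale, against 0.106 to 0.145 in the others), so results on that group are given without it where they change. Its deviations rose with exon length (Spearman's rho 0.52, against -0.46 and -0.38 in replicates 2 and 3). Among the controls rho ran from -0.35 to 0.36. The part of exon length in the member results was not tested.

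Levels below are FPKM (fragments per kilobase of exon, scaled to the mapped total), given in replicate order, and changes are differences of mean log2(FPKM + 1) with their standard errors, treated minus control, tested with limma across all genes with Benjamini-Hochberg adjustment at a threshold of 0.05. All 4 treatments were compared with the same 3 control samples.

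The 2 inhibitors moved these genes in different ways. With 2-DG no member rose: 6 of 10 fell at 5 mM, where 20.3% of all genes tested fell and 15% rose (35.3% in all), and 8 of 10 fell at 10 mM, where 26.8% fell and 21.4% rose (48.2% in all). The sharpest falls were at the lactate end, in Slc16a3, Ldha and Slc16a1. The counts moved with the scaling of the samples. At 5 mM, 1 member (Eno2) rose and 4 fell under median ratio scaling, where 2423 of all genes rose and 2259 fell, against 1990 and 2696 as deposited. Under quantile normalization 1 rose and 7 fell at 5 mM, and with no filter on low values none rose and 4 fell. At 10 mM, 8 fell under each of these, and Eno2 rose under both scalings. With oligomycin members passed in both directions, as genes in all did, and at 10 nM in shares near those over all genes. At 1 nM, 1 member (Eno2) rose and 6 fell, where 29.8% and 33.2% of all genes did (63% in all). At 10 nM, 3 members (Pgk1, Eno2 and Slc16a3) rose and 4 (Eno1, Pkm, Ldhb and Slc16a1) fell, where 34% and 41.7% of all genes did (75.8% in all). Without replicate 1 of 10 nM oligomycin Eno3 passed as well, giving 4 rises and 4 falls. Under median ratio scaling the 10 nM counts were 4 and 4, where 5032 of all genes rose and 5034 fell, against 4523 and 5544 as deposited. Under quantile normalization they were 4 and 6, where 5080 of all genes rose and 4993 fell. With the FPKM of near-identical gene copies summed they were 3 and 3, since the fall of Eno1 did not hold in that sum, which is not weighted by gene length. At 1 nM only quantile normalization changed the counts, to 2 rises and 6 falls. The median change of the 10 genes was -0.37 at 1 nM and -0.07 at 10 nM oligomycin, and -0.24 at 5 mM and -0.41 at 10 mM 2-DG. The medians over all genes tested in the same comparisons were -0.03, -0.08, -0.02 and -0.03. As a sum, the 10 genes held 0.726% ± 0.00906 of all FPKM in the controls, 0.556% ± 0.0101 at 1 nM and 0.653% ± 0.0175 at 10 nM oligomycin (SD, n = 3 each). The same sum was 0.618% ± 0.0103 at 5 mM and 0.558% ± 0.00667 at 10 mM 2-DG (SD, n = 3 each).

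**Figure D1:**
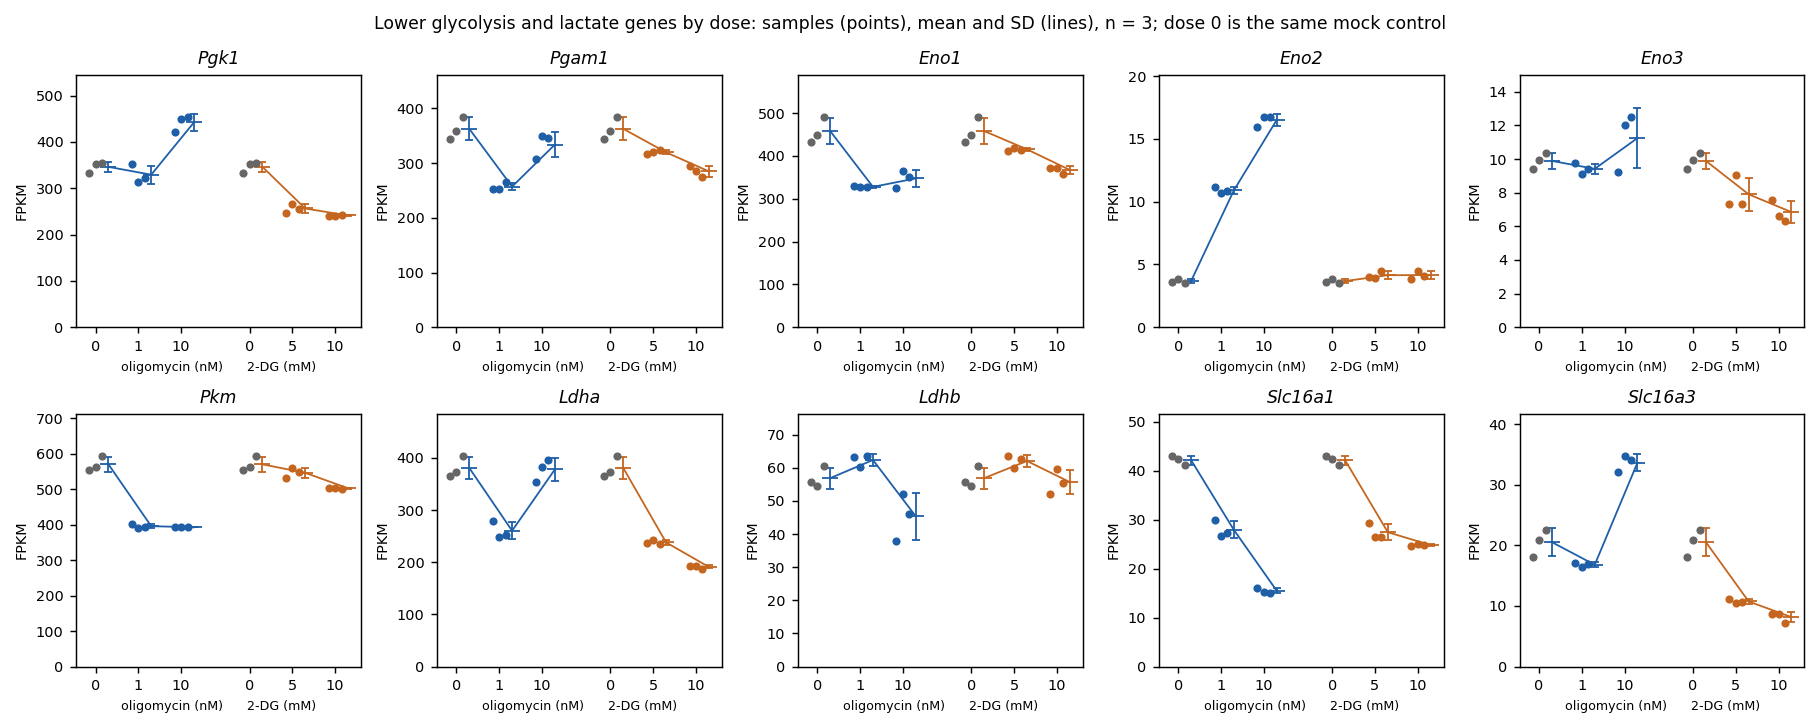
FPKM of each of the 10 genes in every sample (points), with the mean and SD of each group of 3 (lines), against the dose of oligomycin in nM (blue) and of 2-DG in mM (orange); dose 0 is the same mock control in both series. Eno2 climbed to 16.0 to 16.8 FPKM at 10 nM oligomycin, Slc16a1 dropped to 15.1 to 16.1 FPKM there, and Ldha and Slc16a3 stepped down along the 2-DG doses.

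**Figure D2:**
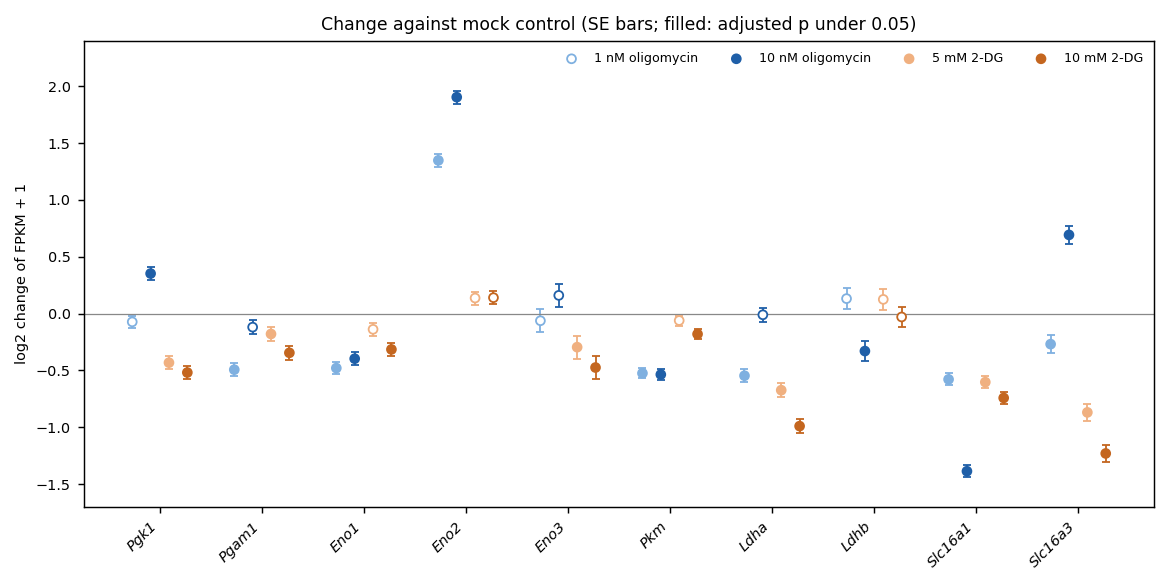
Change of log2(FPKM + 1) against mock control for the 10 genes in pathway order, with standard errors from the limma fit; filled points have an adjusted p under 0.05. Orange points (2-DG) that passed are all below 0, while blue points (oligomycin) that passed lie on both sides.

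Promoter sequence is shown for 5 members: Pgk1, Ldha and Slc16a3, which took their lowest levels with 2-DG, the other transporter Slc16a1, which was lowest at 10 nM oligomycin, and Eno2, which had the largest change. Eno3 also took its lowest levels with 2-DG, and its sequence is not shown. Each window runs from 250 bases before to 50 bases after a transcription start of RefSeq (GRCm38.p6), 5′ to 3′ on the gene's strand. Capitals mark ACGTG or GCGTG, the core letters recognised by HIF-1, on either strand (CACGT and CACGC are the same letters read from the other strand). CACGTG, the E-box recognised by MYC, holds ACGTG on both strands and counts as 1 match on each.
Pgk1, chrX:106186850-106187149 (+ strand): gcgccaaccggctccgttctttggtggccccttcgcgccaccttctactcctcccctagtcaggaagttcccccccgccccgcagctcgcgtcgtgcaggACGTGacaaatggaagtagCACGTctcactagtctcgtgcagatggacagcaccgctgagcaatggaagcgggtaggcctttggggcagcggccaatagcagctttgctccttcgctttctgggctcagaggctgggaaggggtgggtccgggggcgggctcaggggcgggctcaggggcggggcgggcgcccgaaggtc
Ldha, chr7:46845554-46845853 (+ strand): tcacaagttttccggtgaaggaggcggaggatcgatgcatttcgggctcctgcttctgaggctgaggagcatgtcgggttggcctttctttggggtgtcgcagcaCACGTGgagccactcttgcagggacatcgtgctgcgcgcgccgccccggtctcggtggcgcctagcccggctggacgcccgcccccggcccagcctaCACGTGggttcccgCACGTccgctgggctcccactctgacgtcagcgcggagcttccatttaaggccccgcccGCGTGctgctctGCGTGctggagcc
Slc16a3, chr11:120948817-120949116 (+ strand): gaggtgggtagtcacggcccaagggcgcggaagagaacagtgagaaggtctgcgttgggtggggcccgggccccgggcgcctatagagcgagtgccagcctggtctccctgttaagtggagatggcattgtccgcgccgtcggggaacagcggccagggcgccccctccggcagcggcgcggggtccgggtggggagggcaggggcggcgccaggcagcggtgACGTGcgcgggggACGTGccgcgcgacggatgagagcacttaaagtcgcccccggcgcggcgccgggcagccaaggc
Slc16a1, chr3:104638414-104638713 (+ strand): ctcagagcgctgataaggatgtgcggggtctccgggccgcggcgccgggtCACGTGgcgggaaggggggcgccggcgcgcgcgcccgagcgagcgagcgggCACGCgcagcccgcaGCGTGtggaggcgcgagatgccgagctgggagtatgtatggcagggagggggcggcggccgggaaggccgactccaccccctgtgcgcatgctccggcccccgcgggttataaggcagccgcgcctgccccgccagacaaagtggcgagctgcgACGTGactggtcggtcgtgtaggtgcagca
Eno2, chr6:124769624-124769923 (- strand): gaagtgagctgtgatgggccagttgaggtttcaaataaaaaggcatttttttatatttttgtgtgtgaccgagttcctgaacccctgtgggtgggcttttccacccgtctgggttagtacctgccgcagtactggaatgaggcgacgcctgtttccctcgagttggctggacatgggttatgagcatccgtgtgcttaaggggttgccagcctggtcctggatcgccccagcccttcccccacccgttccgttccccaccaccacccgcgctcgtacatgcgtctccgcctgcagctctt
Ldha had 7 matches, 2 CACGTG among them, in this window, which is one of its 2 windows. Slc16a1 had 5 matches with 1 CACGTG, Pgk1 and Slc16a3 had 2 ACGTG matches each, and the Eno2 window held neither motif. The Eno3 window, not shown, held 1 GCGTG and no ACGTG. Over all 10 members, 12 of 14 windows and 9 of 10 genes held at least 1 match, where 43.8% of 32851 mouse windows of the same length held one; 2 of the 3 Eno1 windows share most of their bases, and members have up to 3 windows. In the same background ACGTG was found in 19.6%, GCGTG in 32.4% and CACGTG in 7.15% of windows. The member windows were 56.3% to 73.7% G and C. The background was not matched for base content, so enrichment cannot be read from these shares. A match describes letters only, and binding was not measured.

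Pgk1 (ENSMUSG00000062070, chrX:106187100-106203699, + strand, GRCm38), the first ATP-making enzyme of glycolysis, was, besides Eno2, the only enzyme gene of the 10 to rise at 10 nM oligomycin in the fit of all 15 samples as deposited. It measured 333, 352 and 354 FPKM in the controls, 352, 315 and 322 FPKM at 1 nM, and 422, 450.1 and 455 FPKM at 10 nM oligomycin. With 2-DG it measured 247, 267 and 255 FPKM at 5 mM and 240.2, 241 and 243 FPKM at 10 mM. All 10 nM samples lay above and all 2-DG samples below the controls, while the 1 nM samples overlapped them. The 2 doses of 2-DG did not differ past the threshold (-0.09 ± 0.05 for 10 mM against 5 mM, limma adjusted p = 0.39). The change was 0.35 ± 0.05 at 10 nM oligomycin (limma adjusted p = 3.9e-05), -0.43 ± 0.05 at 5 mM 2-DG (adjusted p = 3.9e-05) and -0.52 ± 0.05 at 10 mM (adjusted p = 4.0e-06), and -0.07 ± 0.05 at 1 nM oligomycin (adjusted p = 0.25). The copy Pgk1-rs7, whose transcript is 100% identical to that of Pgk1 over 1255 bases, averaged 5.48 to 8.99 FPKM by group. No call of Pgk1 changed with this copy summed.

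Pgam1 (ENSMUSG00000011752, chr19:41911871-41918664, + strand), which moves the phosphate of phosphoglycerate, was lowest at 1 nM oligomycin. Its levels were 344, 359 and 385 FPKM in the controls, 253, 253 and 265 FPKM at 1 nM, and 307, 349 and 345 FPKM at 10 nM oligomycin. With 2-DG they were 316, 319.7 and 323 FPKM at 5 mM and 295, 285 and 275 FPKM at 10 mM. The 1 nM samples lay below every other sample, and the 10 nM samples overlapped the controls. Pgam1 fell by 0.49 ± 0.06 at 1 nM oligomycin (limma adjusted p = 6.5e-06) and by 0.35 ± 0.06 at 10 mM 2-DG (adjusted p = 2.9e-04). Its fall of 0.18 ± 0.06 at 5 mM (adjusted p = 0.029) did not pass without control replicate 2 or 3 or any one of the 5 mM samples (adjusted p = 0.060 to 0.12), nor under median ratio scaling (-0.14 ± 0.05, adjusted p = 0.055). Nor did it pass with no filter (adjusted p = 0.071) or with its copy Pgam1-ps2 summed (adjusted p = 0.0505). The transcript of Pgam1-ps2 is 100% identical to that of Pgam1 over 765 bases. Pgam1-ps2 averaged 24.9 to 41.6 FPKM by group. At 10 nM oligomycin the change was -0.12 ± 0.06 (adjusted p = 0.080), and 10 nM stood 0.37 ± 0.06 above 1 nM (adjusted p = 1.7e-04); without control replicate 1 or 10 nM replicate 2 the change against control passed (adjusted p = 0.042 and 0.045). Under quantile normalization Pgam1 passed as lower at 10 nM, at -0.31 ± 0.05 (adjusted p = 2.6e-05).

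The 3 enolases differed. Enolase turns phosphoglycerate into phosphoenolpyruvate, and its subunits are known as the broadly expressed form (Eno1), the neuronal form (Eno2) and the muscle form (Eno3). Eno1 (ENSMUSG00000063524, chr4:150236721-150248879, + strand) measured 434, 449 and 492 FPKM in the controls, 329.7, 327 and 327 FPKM at 1 nM and 326, 365 and 352 FPKM at 10 nM oligomycin, so all oligomycin samples lay below the controls. It measured 413, 419 and 415 FPKM at 5 mM and 372, 373 and 358 FPKM at 10 mM 2-DG, both below every control sample. The change passed at 1 nM oligomycin (-0.48 ± 0.06, limma adjusted p = 5.0e-06), 10 nM (-0.40 ± 0.06, adjusted p = 1.6e-05) and 10 mM 2-DG (-0.32 ± 0.06, adjusted p = 3.8e-04), and at 5 mM it was -0.14 ± 0.06 (adjusted p = 0.069, 0.041 without control replicate 1 and 0.0058 under quantile normalization).

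The value of Eno1 at 10 nM may depend on how reads were split with a near-identical gene. Eno1b, whose transcript is 99.5% identical to that of Eno1 over 1652 bases, measured 91.4, 94.8 and 101 FPKM in the controls, 128, 121 and 128 FPKM at 1 nM and 195, 239 and 239 FPKM at 10 nM oligomycin. Eno1b rose by 0.39 ± 0.07 at 1 nM (limma adjusted p = 3.4e-04) and by 1.22 ± 0.07 at 10 nM (adjusted p = 2.0e-09), with levels at both 2-DG doses of 97.3 to 108 FPKM. How the counting placed reads that match both genes is not given in the sources used here, so the split is uncertain. Summed, the pair gave 553.9 ± 35.0 FPKM in the controls, 453.6 ± 5.24 FPKM at 1 nM and 572.3 ± 44.9 FPKM at 10 nM oligomycin (SD, n = 3 each). With the FPKM of near-identical copies summed, the change at 10 nM was 0.046 ± 0.062 (limma adjusted p = 0.51). The fall of Eno1 at 10 nM oligomycin did not hold in this sum, while that at 1 nM did (-0.29 ± 0.06, adjusted p = 0.0011). The summed pair was also higher at 10 nM than at 1 nM, by 0.33 ± 0.06 (adjusted p = 6.4e-04), where Eno1 alone gave 0.08 ± 0.06 (adjusted p = 0.24, and 0.045 without replicate 1 of 10 nM). FPKM is per length, and Eno1 has 5379 exon bases, against 1791 bases in the Eno1b transcript. A read placed in Eno1b therefore adds more to the sum than a read placed in Eno1. Reads of the pair were not summed, so whether the pair as a whole fell cannot be read from these sums.

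**Figure D3:**
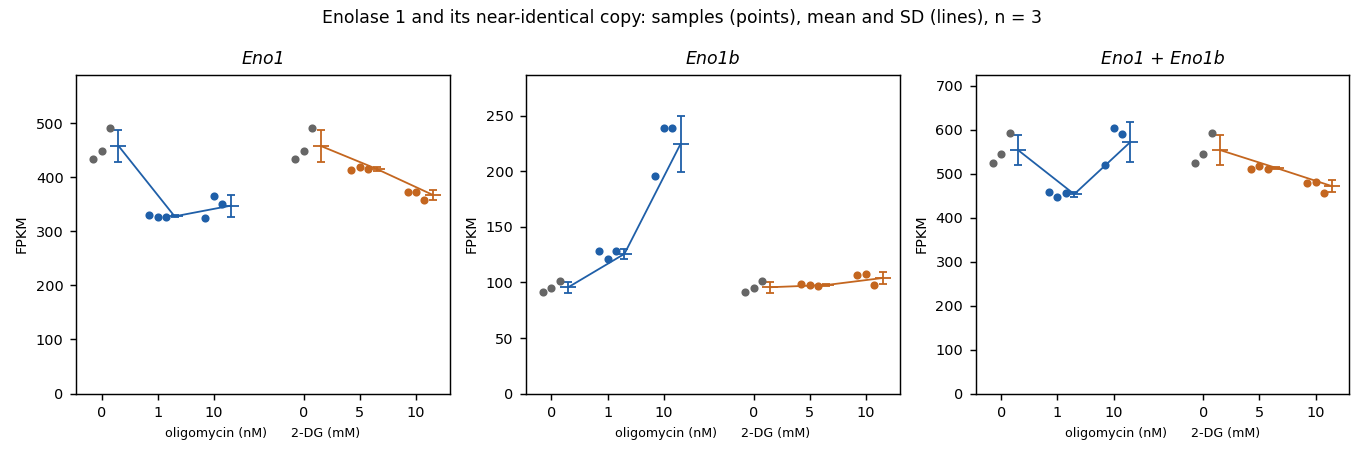
FPKM of Eno1, of the near-identical Eno1b and of their sum in every sample (points) with group mean and SD (lines), by dose of oligomycin in nM (blue) and 2-DG in mM (orange). Eno1 is lower at 10 nM oligomycin than in the controls, Eno1b is higher, and the sums at 10 nM (521 to 605 FPKM) overlap those of the controls (525 to 593 FPKM). FPKM is per length, so a read of the shorter Eno1b adds more to the sum than a read of Eno1.

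Eno2 (ENSMUSG00000004267, chr6:124760053-124769673, - strand) was a minor enolase with a clear dose order. It measured 3.63, 3.85 and 3.55 FPKM in the controls, 11.2, 10.7 and 10.8 FPKM at 1 nM and 16.0, 16.7 and 16.8 FPKM at 10 nM oligomycin, and none of these 3 groups overlapped. The mean was 2.96 times the control mean at 1 nM and 4.49 times at 10 nM, and the higher dose stood 0.56 ± 0.06 above the lower (limma adjusted p = 4.8e-06). With 2-DG it measured 4.03, 3.92 and 4.48 FPKM at 5 mM and 3.87, 4.51 and 4.09 FPKM at 10 mM, just above the controls, with changes of 0.14 ± 0.06 at both doses (adjusted p = 0.081 and 0.059; adjusted p = 0.032 at 10 mM without replicate 1 of that group). Both passed as higher under median ratio scaling (0.17 ± 0.06 each, adjusted p = 0.028 and 0.022) and quantile normalization (0.18 ± 0.05 and 0.16 ± 0.05, adjusted p = 0.019 and 0.023), and 10 mM also with a pseudocount of 0.1 (adjusted p = 0.0499).

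Eno2 made up 0.782% ± 0.0706 of the summed FPKM of the 3 enolases in the controls, 3.13% ± 0.0604 at 1 nM and 4.40% ± 0.154 at 10 nM oligomycin (SD, n = 3 each). It made up 0.969% ± 0.0742 at 5 mM and 1.10% ± 0.0841 at 10 mM 2-DG. Each treated group lay above the controls with no overlap, and the two-sided exact permutation test gave p = 0.1, the smallest that 3 against 3 samples allow. The share at 10 nM exceeded that of the controls by 3.62 percentage points, and by 2.11 points with Eno1b counted among the enolases. Of the 6 neuronal markers listed, Rbfox3, Snap25, Syp and Dcx were under 1 FPKM on average in every group, and the other two moved in opposite directions with oligomycin. Map2 averaged 1.83 FPKM at 1 nM and 2.202 FPKM at 10 nM, against 1.14 FPKM in the controls, and rose at both doses (0.40 ± 0.07, limma adjusted p = 2.6e-04, and 0.58 ± 0.07, adjusted p = 5.2e-06). Tubb3 averaged 14.2 FPKM at 1 nM and 9.62 FPKM at 10 nM, against 36.2 FPKM in the controls, and fell at both. With 2-DG both rose at either dose. The 4 smooth muscle markers (Acta2, Tagln, Cnn1, Myh11) summed to 1771 to 1852 FPKM at 1 nM and 2292 to 2548 FPKM at 10 nM oligomycin, against 586 to 609 FPKM in the controls, and all 4 rose at both doses. The part of these markers in the rise of Eno2, like that of Map2 and the fibroblast markers, was not tested.

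Eno3 (ENSMUSG00000060600, chr11:70657202-70662513, + strand) measured 7.31, 9.06 and 7.34 FPKM at 5 mM and 7.58, 6.63 and 6.33 FPKM at 10 mM 2-DG, against 9.38, 9.94 and 10.4 FPKM in the controls. All 2-DG samples lay below the controls. The fall was 0.47 ± 0.10 at 10 mM (limma adjusted p = 0.0017). At 5 mM the change of -0.30 ± 0.10 (adjusted p = 0.037) did not pass without control replicate 2 or 3 or without 5 mM replicate 1 or 3 (adjusted p = 0.086 to 0.13), nor under median ratio scaling (adjusted p = 0.051) or with no filter (adjusted p = 0.088). With oligomycin it measured 9.74, 9.13 and 9.38 FPKM at 1 nM and 9.20, 12.0 and 12.5 FPKM at 10 nM, where replicate 1 stood below the other pair. The change at 10 nM was 0.16 ± 0.10 (adjusted p = 0.17) with all samples and 0.29 ± 0.09 (adjusted p = 0.0080) without replicate 1, and it passed with all samples under median ratio scaling (0.24 ± 0.10, adjusted p = 0.035) and quantile normalization (0.25 ± 0.10, adjusted p = 0.035). Of the striated muscle markers Myog, Myod1, Ckm, Myh1 and Tnnt2 were under 1 FPKM on average in every group. Acta1 averaged 25.7 FPKM at 10 nM oligomycin and 4.74 FPKM at 10 mM 2-DG, against 9.90 FPKM in the controls, and its part in the levels of Eno3 was not tested.

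Pkm (ENSMUSG00000032294, chr9:59656368-59679375, + strand), the pyruvate kinase gene whose M1 and M2 splice forms are summed in a gene-level value, had the highest FPKM of the 10 in the controls. It fell with oligomycin to nearby levels at both doses: 555, 562 and 594 FPKM in the controls, 403, 391 and 394 FPKM at 1 nM, and 393, 393 and 392 FPKM at 10 nM. The fall was 0.53 ± 0.04 at 1 nM (limma adjusted p = 2.2e-07) and 0.54 ± 0.04 at 10 nM (adjusted p = 6.0e-08), and 10 nM against 1 nM gave -0.01 ± 0.04 (adjusted p = 0.85). With 2-DG it measured 532, 559 and 547 FPKM at 5 mM, overlapping the controls, and 503, 504 and 501 FPKM at 10 mM, below them. Only the higher dose passed (-0.18 ± 0.04, adjusted p = 0.0040; -0.06 ± 0.04 at 5 mM, adjusted p = 0.31).

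At the lactate step Ldha fell in 3 of the 4 treatments and Ldhb in 1, at 10 nM oligomycin, where Ldha did not pass. LDHA-rich enzyme is known for reducing pyruvate to lactate, and LDHB-rich enzyme for working well in the other direction. Ldha (ENSMUSG00000063229, chr7:46841475-46855627, + strand) measured 365, 374 and 404 FPKM in the controls, 237, 243 and 234 FPKM at 5 mM and 192, 193 and 188 FPKM at 10 mM 2-DG, 3 separate ranges in dose order. It fell by 0.67 ± 0.06 at 5 mM (limma adjusted p = 1.9e-06) and by 0.99 ± 0.06 at 10 mM (adjusted p = 2.5e-08), to 0.502 of the control mean, and 10 mM lay 0.32 ± 0.06 below 5 mM (adjusted p = 0.0076).

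Oligomycin did not give such an order. Ldha measured 279.5, 249 and 253 FPKM at 1 nM and 354, 383 and 396 FPKM at 10 nM. The 1 nM samples lay below all controls and the 10 nM samples overlapped the controls. The change was -0.55 ± 0.06 at 1 nM (limma adjusted p = 2.4e-06) and -0.01 ± 0.06 at 10 nM (adjusted p = 0.87; its sign turned under some alternatives and it passed as lower under quantile normalization), and 10 nM stood 0.54 ± 0.06 above 1 nM (adjusted p = 8.3e-06).

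Ldhb (ENSMUSG00000030246, chr6:142490249-142507957, - strand) passed in 1 comparison with control in the values as deposited. It measured 37.9, 52.1 and 46.2 FPKM at 10 nM oligomycin, against 55.6, 54.5 and 60.5 FPKM in the controls, with replicate 1 the lowest of all 15 samples. The change was -0.33 ± 0.09 (limma adjusted p = 0.0039), and -0.21 ± 0.07 (adjusted p = 0.011) without replicate 1. The other groups were close to the controls: 63.3, 60.3 and 63.5 FPKM at 1 nM oligomycin, 63.6, 60.0 and 62.6 FPKM at 5 mM and 52.2, 59.6 and 55.3 FPKM at 10 mM 2-DG. Their changes lay between -0.03 ± 0.09 at 10 mM 2-DG (adjusted p = 0.80) and 0.13 ± 0.09 at 1 nM oligomycin (adjusted p = 0.22). Under quantile normalization Ldhb passed as higher at 1 nM oligomycin as well (0.25 ± 0.07, adjusted p = 0.0069).

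Ldhb was 13.0% ± 0.242 of the summed lactate dehydrogenase FPKM in the controls, 19.4% ± 0.821 at 1 nM and 10.7% ± 1.17 at 10 nM oligomycin (SD, n = 3 each). FPKM is per exon length of a gene, 3310 bases for Ldha and 1570 for Ldhb. The absolute size of this share, as of the other shares, depends on those lengths, which are the same in all groups. With 2-DG the share was 20.7% ± 0.775 at 5 mM and 22.6% ± 1.15 at 10 mM. The share was thus above the controls in 3 of the 4 treatments and below them at 10 nM oligomycin, with no overlap in any of the 4 comparisons (exact permutation p = 0.1 each, the smallest possible). The share of 10 mM 2-DG exceeded that of 10 nM oligomycin by 11.9 percentage points.

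Of the 2 lactate transporters, Slc16a1 fell in all 4 treatments, and Slc16a3 fell with 2-DG and at 1 nM oligomycin and rose at 10 nM. MCT1, the product of Slc16a1, is a widely expressed carrier of high affinity, and MCT4, the product of Slc16a3, is known for lactate export from strongly glycolytic cells. Slc16a1 (ENSMUSG00000032902, chr3:104638668-104658462, + strand) measured 43.0, 42.3 and 41.2 FPKM in the controls, 29.8, 26.6 and 27.3 FPKM at 1 nM and 16.1, 15.3 and 15.1 FPKM at 10 nM oligomycin. It measured 29.3, 26.5 and 26.5 FPKM at 5 mM and 24.5, 24.9 and 24.9 FPKM at 10 mM 2-DG. Every treated sample lay below every control, the 10 nM oligomycin samples lowest, and the ranges at 1 nM oligomycin and 5 mM 2-DG overlapped. The falls were 0.58 ± 0.05 at 1 nM (limma adjusted p = 4.7e-07), 1.39 ± 0.05 at 10 nM (adjusted p = 2.6e-11, to 0.368 of the control mean), 0.60 ± 0.05 at 5 mM (adjusted p = 1.8e-06) and 0.74 ± 0.05 at 10 mM (adjusted p = 1.1e-07). The summed ESC markers given above had the same order over the oligomycin doses, and their part in the fall of Slc16a1 was not tested.

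Slc16a3 (ENSMUSG00000025161, chr11:120948480-120960868, + strand) measured 18.0, 20.95 and 22.6 FPKM in the controls, 17.1, 16.3 and 17.0 FPKM at 1 nM and 32.0, 34.7 and 34.2 FPKM at 10 nM oligomycin. It measured 11.1, 10.4 and 10.6 FPKM at 5 mM and 8.62, 8.65 and 7.20 FPKM at 10 mM 2-DG. None of the 5 groups overlapped another, and the order ran from 10 nM oligomycin through the controls, 1 nM oligomycin and 5 mM to 10 mM 2-DG. Slc16a3 rose by 0.69 ± 0.08 at 10 nM oligomycin (limma adjusted p = 1.6e-06), and fell by 0.27 ± 0.08 at 1 nM (adjusted p = 0.0077), by 0.87 ± 0.08 at 5 mM 2-DG (adjusted p = 2.0e-06) and by 1.23 ± 0.08 at 10 mM (adjusted p = 3.7e-08), to 0.398 of the control mean. The 6 macrophage markers listed (Csf1r, Cd68, Lyz2 and others) summed to 125 to 164 FPKM at 1 nM and 151 to 165 FPKM at 10 nM oligomycin, 56.2 to 58.9 FPKM at 5 mM and 51.0 to 52.4 FPKM at 10 mM 2-DG, against 116 to 129 FPKM in the controls, with Ptprc under 1 FPKM in every group. The sum was mostly Lyz2 (35.4 FPKM at 10 mM 2-DG, against 95.1 FPKM in the controls), and the members differed. Pf4 averaged 0.624 FPKM at 10 mM, against 11.5 FPKM in the controls, while Cd68 averaged 11.2 FPKM, against 11.7 FPKM (adjusted p = 0.56). Of the 5 that were tested, 3 fell at 5 mM and 2 at 10 mM 2-DG, and 2 rose at 1 nM and 4 at 10 nM oligomycin. Over all genes tested, 20.3% and 26.8% fell at 5 mM and 10 mM, and 29.8% and 34% rose at 1 nM and 10 nM. The part of the macrophage markers in the levels of Slc16a3 was not tested. The step between the 2-DG doses (-0.36 ± 0.08, adjusted p = 0.016) did not pass without 5 mM replicate 1 or without 10 mM replicate 3 (adjusted p = 0.063 in both cases).

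Of the summed FPKM of the 2 transporters, Slc16a3 made up 32.7% ± 2.97 in the controls, 37.6% ± 1.07 at 1 nM and 68.4% ± 1.69 at 10 nM oligomycin (SD, n = 3 each). At 5 mM and 10 mM 2-DG it made up 28.1% ± 0.552 and 24.7% ± 2.00. No treated group overlapped the controls (exact permutation p = 0.1 each, the smallest possible). At 10 nM oligomycin Slc16a3 therefore had the higher FPKM of the pair, and in the other groups Slc16a1 did.

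**Figure D4:**
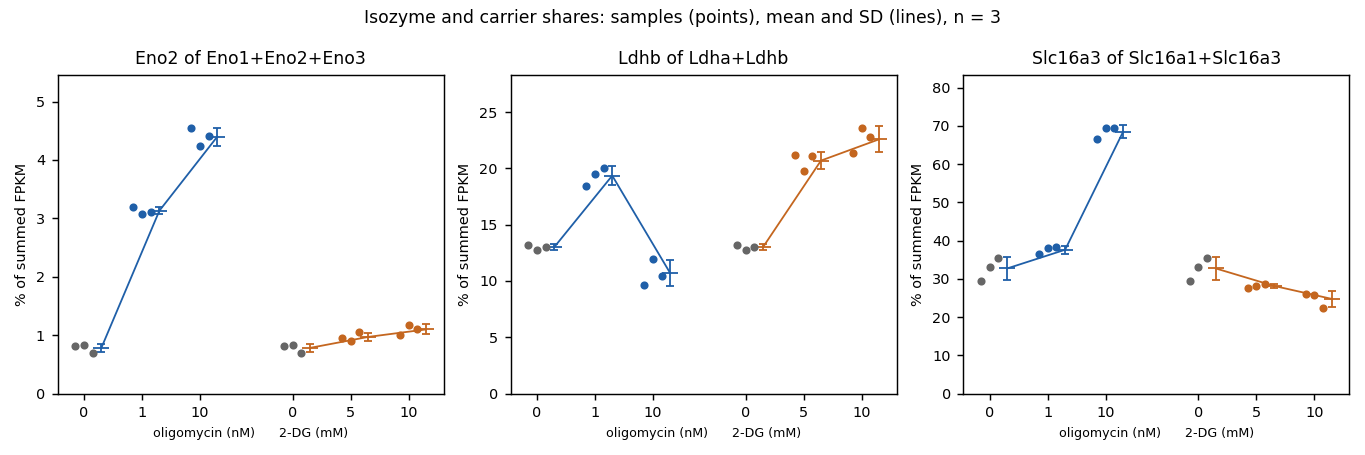
Share in percent of summed FPKM of Eno2 among the 3 enolases, of Ldhb among the lactate dehydrogenases and of Slc16a3 among the 2 transporters, in every sample (points) with mean and SD of 3 (lines), by dose of oligomycin in nM (blue) and 2-DG in mM (orange). The Slc16a3 share reached 66.5% to 69.5% at 10 nM oligomycin, and the Ldhb share was 9.65% to 12.0% there and 19.8% to 23.6% with 2-DG.

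Set directly against each other, 10 mM 2-DG and 10 nM oligomycin differed in 9 of the 10 genes: 3 were higher with 2-DG and 6 lower, where 37.7% and 33.2% of all genes were (70.8% in all). Over all genes that split was 5003 higher and 4408 lower with 2-DG, and it turned to 4680 and 4778 under quantile normalization and to 4689 and 4772 under median ratio scaling. Of the members, Pgam1, at -0.23 ± 0.06 as deposited, did not pass under quantile normalization (-0.083 ± 0.045, adjusted p = 0.12), where Eno1 passed as higher with 2-DG (0.18 ± 0.04, adjusted p = 0.0014). Slc16a3 was lower with 2-DG by 1.92 ± 0.08 on the log2 scale (limma adjusted p = 6.0e-11), Eno2 by 1.76 ± 0.06 (adjusted p = 9.4e-12), Ldha by 0.98 ± 0.06 (adjusted p = 3.3e-09) and Pgk1 by 0.87 ± 0.05 (adjusted p = 4.6e-09). Slc16a1 (0.64 ± 0.05, adjusted p = 7.3e-08), Pkm (0.36 ± 0.04, adjusted p = 5.4e-06) and Ldhb (0.30 ± 0.09, adjusted p = 0.0080) were higher with 2-DG. Ldhb did not pass in a fit of only these groups (adjusted p = 0.053), and it was 0.18 ± 0.07 without replicate 1 of 10 nM oligomycin (adjusted p = 0.027). Eno1 gave 0.08 ± 0.06 (adjusted p = 0.21). With the FPKM of its near-identical copy added, it was lower with 2-DG (-0.28 ± 0.06, limma adjusted p = 0.0011). That sum weighs reads of the shorter Eno1b more than reads of Eno1, so a fall of the pair in reads cannot be taken from it.

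Between the doses of 1 inhibitor, 10 nM against 1 nM oligomycin gave 5 higher members (Pgk1, Pgam1, Eno2, Ldha and Slc16a3) and 2 lower (Ldhb and Slc16a1), where 18.7% and 27.6% of all genes passed (46.4% in all). Over all genes that split was 2489 higher and 3672 lower, and 3347 higher and 3042 lower under quantile normalization. Without replicate 1 of 10 nM, Eno1 and Eno3 passed as higher too, for 7 higher and 2 lower, as they did with all samples under median ratio scaling; under quantile normalization only Eno3 joined, for 6 and 2. For 10 mM against 5 mM 2-DG no member was higher and 2 were lower (Ldha and Slc16a3), where 3.41% and 2.45% of all genes passed (5.86% in all). Eno1 was a further faller when only these groups were fitted and with either rescaling of the samples (limma adjusted p = 0.028 to 0.045). Of the 8 members that did not pass between the 2-DG doses, 7 had changes between -0.18 and -0.09 and Eno2 had 0.0032 ± 0.0575.

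The first part of glycolysis was measured in the same samples. Of 10 upper glycolysis genes, 6 fell and 2 rose at 5 mM 2-DG and 7 fell and 1 rose at 10 mM. Over all genes tested, 35.3% passed at 5 mM and 48.2% at 10 mM. At 10 mM the phosphofructokinase genes Pfkl (-0.78 ± 0.05, limma adjusted p = 4.8e-08) and Pfkm (-0.55 ± 0.05), the triose phosphate isomerase gene Tpi1 (-0.70 ± 0.06) and the aldolase gene Aldoc (-1.14 ± 0.11, at a mean of 0.922 FPKM, against 3.25 FPKM in the controls) fell, and Pfkp rose (0.41 ± 0.07). Aldoc fell in the other treatments too, by 0.78 ± 0.11 at 5 mM 2-DG (limma adjusted p = 1.2e-04), and by 0.99 ± 0.11 at 1 nM (adjusted p = 3.5e-06) and 1.09 ± 0.11 at 10 nM oligomycin (adjusted p = 5.6e-07). With oligomycin, 2 of the upper genes rose and 5 fell at 1 nM, and 4 rose and 3 fell at 10 nM. Over all genes tested, 63% passed at 1 nM and 75.8% at 10 nM. The hexokinase genes split. Hk1 averaged 17.6 FPKM at 10 nM oligomycin, against 8.95 FPKM in the controls (a change of 0.90 ± 0.05, limma adjusted p = 5.1e-10), while Hk2 averaged 24.4 FPKM, against 35.1 FPKM (-0.51 ± 0.06, adjusted p = 2.4e-06). Gapdh, the enzyme just before Pgk1 and often used as a reference gene, averaged 42.8 FPKM at 10 nM, against 87.8 FPKM in the controls (-1.02 ± 0.12, adjusted p = 3.5e-06); it has many processed pseudogenes in the mouse, and how reads shared with them were placed is not given. The median change of the upper genes was -0.23 at 1 nM and 0.10 at 10 nM oligomycin, and -0.34 at 5 mM and -0.45 at 10 mM 2-DG.

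**Figure D5:**
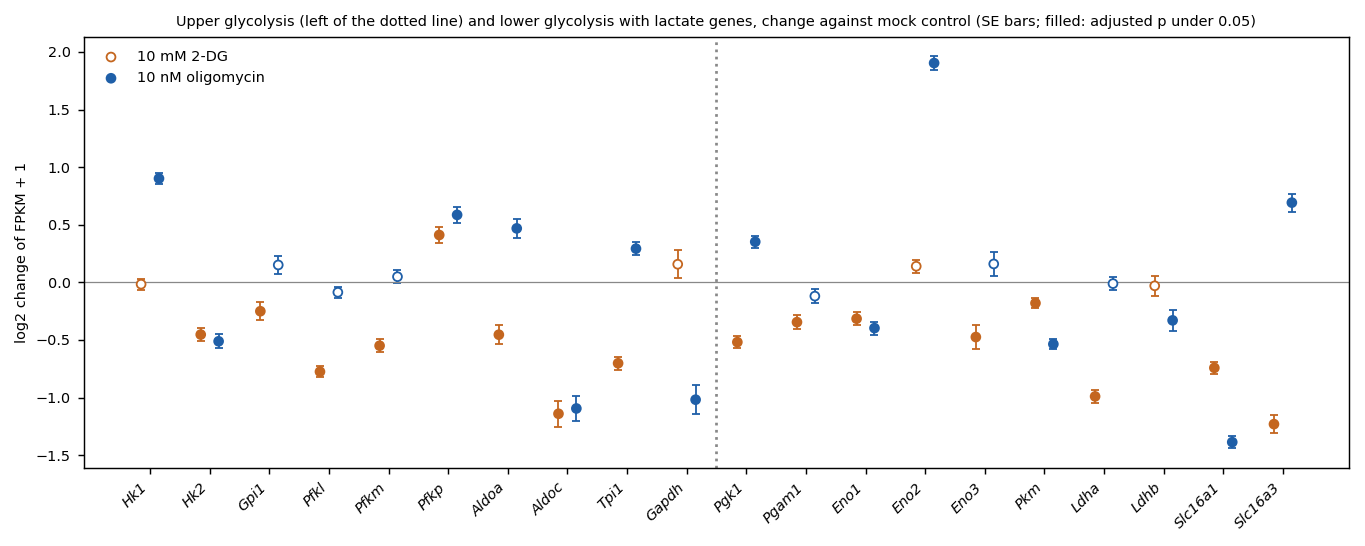
Change of log2(FPKM + 1) against mock control at 10 mM 2-DG (orange) and 10 nM oligomycin (blue) for 10 upper glycolysis genes (left of the dotted line) and the 10 lower glycolysis and lactate genes (right), with standard errors; filled points have an adjusted p under 0.05. With 2-DG most genes on both sides lie below 0, while with oligomycin Hk1, Pfkp, Aldoa, Tpi1, Pgk1, Eno2 and Slc16a3 are filled points above 0.

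Of 14 paralogs and partner genes listed, 13 were in the table and 5 passed the filter. The testis or tissue-restricted paralogs Pgk2, Eno4, Pklr, Ldhc, Slc16a7 and Slc16a8 averaged under 1 FPKM in every group. The ancillary glycoproteins that carry the transporters to the membrane moved in opposite directions with oligomycin. Embigin (Emb) averaged 8.92 FPKM at 10 nM, against 24.4 FPKM in the controls (-1.36 ± 0.05, limma adjusted p = 2.1e-11), and basigin (Bsg), the partner of MCT1 and MCT4, averaged 401.6 FPKM, against 226 FPKM (0.82 ± 0.08, adjusted p = 4.7e-07). With 10 mM 2-DG Emb fell by 0.21 ± 0.05 (adjusted p = 0.0031) and Bsg gave -0.12 ± 0.08 (adjusted p = 0.26). The bisphosphoglycerate mutase gene Bpgm fell in all 4 comparisons with control, by 0.26 to 0.34.

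Genes for the entry of pyruvate into mitochondria or its use there were mixed. Of 13 tested, 5 rose and 3 fell at 1 nM and 4 rose and 5 fell at 10 nM oligomycin. With 2-DG, 2 rose and 5 fell at either dose. Over all genes tested, 63% and 75.8% passed at 1 nM and 10 nM oligomycin, and 35.3% and 48.2% at 5 mM and 10 mM 2-DG. The pyruvate carrier gene Mpc1 averaged under 1 FPKM in every group and was not tested. The carrier gene Mpc2 averaged 2.89 FPKM at 10 nM oligomycin, against 1.42 FPKM in the controls (0.67 ± 0.10, limma adjusted p = 4.0e-05). Pdk1, a kinase that inactivates pyruvate dehydrogenase, fell in all 4 treatments, to 10.7 FPKM at 1 nM and 8.46 FPKM at 10 nM oligomycin, and 10.8 FPKM at 5 mM and 8.40 FPKM at 10 mM 2-DG, against 21.4 FPKM in the controls. The other kinase genes differed. Pdk2 rose at 10 nM oligomycin (0.67 ± 0.12, limma adjusted p = 1.0e-04). Pdk4 rose at 1 nM (0.50 ± 0.09, adjusted p = 2.3e-04) and at 10 nM (0.47 ± 0.09, adjusted p = 2.7e-04). Pdk3 fell at 5 mM (-0.18 ± 0.04) and 10 mM 2-DG (-0.30 ± 0.04) and did not pass at 10 nM oligomycin. Pdp2, a phosphatase that reactivates the dehydrogenase, was lower in all 4 treatments (-0.85 ± 0.07 at 10 mM 2-DG, adjusted p = 5.2e-07). The pyruvate carboxylase gene Pcx rose at 1 nM (0.58 ± 0.07, adjusted p = 7.8e-06) and 10 nM oligomycin (0.68 ± 0.07, adjusted p = 6.8e-07), and the dehydrogenase subunit gene Pdha1 rose at 10 mM 2-DG (0.38 ± 0.05, adjusted p = 2.6e-05). At 10 nM oligomycin Pdha1 (-0.33 ± 0.05), Pdhb (-0.46 ± 0.06) and Pdhx (-0.36 ± 0.08) fell, while Dlat and Dld of the same complex did not pass.

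Of 9 transcription factor genes tied to the pathway, 7 were tested. Mlxipl, the ChREBP gene, and Ppargc1a averaged under 1 FPKM in every group and were not tested. Of the 7, none rose and 3 fell at 1 nM oligomycin, and 2 rose and 4 fell at 10 nM. With 2-DG, 1 rose and 2 fell at 5 mM, and none rose and 3 fell at 10 mM. In the same order of comparisons, 63%, 75.8%, 35.3% and 48.2% of all genes tested passed. Mycn averaged 15.8 FPKM at 10 nM oligomycin, against 89.4 FPKM in the controls (-2.43 ± 0.07, limma adjusted p = 3.8e-12), while Myc averaged 38.2 FPKM, against 26.2 FPKM (0.53 ± 0.07, adjusted p = 5.4e-06). Mycn also fell at 1 nM oligomycin (-1.56 ± 0.07, adjusted p = 1.2e-09) and at 10 mM 2-DG (-0.27 ± 0.07, adjusted p = 0.0068). Myc was lower at 1 nM oligomycin (-0.23 ± 0.07, adjusted p = 0.0088) and at 5 mM 2-DG (-0.28 ± 0.07, adjusted p = 0.0046). Epas1 averaged 3.93 FPKM at 1 nM and at 10 nM oligomycin, against 7.30 FPKM in the controls. Its change was -0.75 ± 0.07 at each dose (adjusted p = 8.4e-07 and 3.3e-07), and it rose at 5 mM 2-DG (0.21 ± 0.07, adjusted p = 0.037). Hif1a fell by 0.31 ± 0.07 at 5 mM (adjusted p = 0.0054) and by 0.22 ± 0.07 at 10 mM 2-DG (adjusted p = 0.027), and gave 0.10 ± 0.07 at 10 nM oligomycin (adjusted p = 0.22). These are mRNA levels, and HIF-1 alpha is known to be regulated mainly as a protein.

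The genes most like each member across the 15 samples were found by Pearson's r of log2(FPKM + 1) over 7155 genes with a mean of at least 5 FPKM; these values are a description, since all points share the 5 groups. The nearest gene to Pgk1 was another member, Slc16a3 (r = 0.983), followed by Bnip3 (0.980) and Tpi1 (0.973). The nearest to Slc16a3 were Tpi1 (0.984), Pgk1 (0.983) and the glucose transporter gene Slc2a1 (0.971), and to Ldha they were Pfkl (0.985), Slc2a1 (0.962) and Tpi1 (0.958). The other members had neighbours outside the pathway. Eno1 was nearest to Tufm (0.983), Pkm to the mitotic kinase gene Plk1 (0.986), Pgam1 to Pafah1b3 (0.963), Slc16a1 to Ubr7 (0.992), Ldhb to Zrsr2 (0.944) and Eno3 to Alad (0.936). Eno2 was nearest to Plppr2 (0.995), Serpinf1 (0.993) and the growth factor gene Igf2 (0.993).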

How the data were processed

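The authors deposited 1 table of FPKM values per gene and sample for 15 samples. The submitters' processing notes name the build GRCm38 and the tools HTSeq 0.6.0, Bowtie2 2.2.3 and HISAT2 2.1.0, with no role or order. Strand and the treatment of reads that match several genes are not given in the sources used here. A line that named no gene was left out. The 5 groups follow the labels. Depth was worked out from the steps of low values with GENCODE M21 exon lengths and came to 17.4 to 19.2 M (mega) reads per sample; of values worth no more than 20 reads, 95.4% to 96.0% were within 0.05 of a whole read. Of the 10 members, 9 have the same coordinates in that annotation, and those printed are the table's.

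A gene was tested if 3 or more samples reached 1 FPKM (13284 genes), on the log2(FPKM + 1) scale, which understates changes of low genes. In R 4.3.3, limma 3.58.1 fitted a mean for each group over all 15 samples, with a trended prior variance, and gave 7 comparisons with Benjamini-Hochberg adjustment over all genes tested at 0.05, after a test on simulated data. Isozyme shares were compared by two-sided exact permutation tests. Alternatives were a pseudocount of 0.1, no filter, median ratio scaling, quantile normalization, a fit of only the groups compared, the replicate number as a block, leaving out each replicate, and, added after seeing the data, near-identical copies summed (found by aligning transcripts).

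The members and gene lists were chosen with earlier results of these data known. All 10 members are named. Each other list is represented by genes drawn from the up to 4 with the largest change past the threshold per comparison with control. Not all of these values are printed. Each member is represented by some or all of the 3 genes most alike by Pearson's r. Other genes named were chosen after their values were seen. Error margins are SDs over 3 samples for levels and shares and standard errors for changes. Tables, permutation tests and figures were made in Python 3.11.15 with pandas 2.3.3, scipy 1.17.1 and matplotlib 3.10.9.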

Additional observations from a re-analysis of the deposited data

How the results depend on the processing

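Of 70 results for single members (10 genes in 7 comparisons), 50 kept their direction and their side of the threshold in all 13 alternatives. Of 910 values in all, 849 did so, 18 no longer passed, 26 newly passed and 17 changed sign. The cause of the changes was not tested. With the FPKM of near-identical copies summed, not weighted by length, Eno1 at 10 nM oligomycin against control became 0.046. In the same sum Eno1 at 10 mM 2-DG against 10 nM oligomycin became -0.28. Ldha at 10 nM oligomycin against control was 0.076 under median ratio scaling, -0.045 to 0.034 when 1 replicate was left out, none past the threshold, and -0.18 under quantile normalization (limma adjusted p = 0.0025). Ldhb at 10 mM 2-DG against control was 0.0054 under median ratio scaling, 0.042 under quantile normalization and -0.079 to 0.015 with 1 replicate left out. For 10 nM against 1 nM oligomycin, Eno1 was -0.021 under quantile normalization, and Pkm was 0.045 under median ratio scaling and -0.020 to 0.0011 with 1 replicate left out. Eno2 at 10 mM against 5 mM 2-DG was -0.0016 under median ratio scaling, -0.017 under quantile normalization and -0.045 to 0.050 with 1 replicate left out.

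The count of all genes called between the 2-DG doses, 779, was 273 to 469 when 1 replicate of either dose was left out; the other 6 counts stayed within 1.5 times. Samples with the same replicate number deviated together (correlation above 0.1) in 3 of 30 pairs, so the numbers were not taken to pair the samples. With the replicate number as a block, no member's call changed, and 8238 and 10023 genes were called for 1 nM and 10 nM oligomycin, 4463 and 6218 for 5 mM and 10 mM 2-DG, 5972 and 597 between the doses of oligomycin and of 2-DG, and 9333 for 10 mM 2-DG against 10 nM oligomycin. Without the block these counts were 8366, 10067, 4686, 6401, 6161, 779 and 9411. Depth limits Eno3 and Eno2 most among the members, which received as few as 200 and 291 reads in a sample, and the split of reads between Eno1 and Eno1b limits both.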
